A study of Homo sapiens with 70 samples.

Results

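The genes described here encode 7 proteins of the RAS, RAF, MEK and ERK signalling chain. They were taken from the deposited table by gene name: HRAS and NRAS (RAS GTPases), ARAF and BRAF (RAF kinases), MAP2K1 and MAP2K2 (the MEK1 and MEK2 kinases) and MAPK3 (the ERK1 kinase). They are 7 of the 78932 genes in that table, and genes around them in the pathway were followed only as lists. The cells were MIA PaCa-2, an established line from a pancreatic ductal adenocarcinoma, made resistant to sotorasib, a covalent inhibitor of a mutant RAS protein. Every group carried dCas9-KRAB under DOX control, that is, a Cas9 that no longer cuts and brings a KRAB repressor domain to a guide's site. Each line also carried 1 guide RNA: sgZBTB11-1 or sgZBTB11-2, directed at the zinc finger gene ZBTB11, or sgNS, the non-targeting control. Cells received DOX (doxycycline, which induces dCas9-KRAB) or the vehicle DMSO and were collected at 5 hr or on days 1, 3 or 5. These 3 lines, 2 treatments and 4 times gave 24 groups and 70 libraries of poly(A) RNA. All groups had 3 libraries except sgNS with DMSO on day 1 and sgZBTB11-1 with DMSO on day 5, which had 2 each. Whether a line was 1 clone is not given in the sources used here. Separate cultures are not named in the labels for libraries of the same group, so p-values reflect only how these libraries vary, and that variation may be technical.

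RAS proteins are small GTPases at the plasma membrane that switch between a GDP-bound off state and a GTP-bound on state. In the on state they recruit RAF kinases, which phosphorylate the paired kinases MEK1 and MEK2, and these phosphorylate ERK1 and ERK2. Active ERK enters the nucleus and drives transcription of immediate early genes, as well as of phosphatases and Sprouty proteins that dampen the chain. Pancreatic ductal adenocarcinoma is known for mutations that hold this chain on. The libraries measure transcripts, not the phosphorylation or GTP loading by which the chain is mainly controlled.

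The libraries held 12068833 to 20627648 counts each. ZBTB11, the gene aimed at, was measured at 57.2 CPM (counts scaled to a common library size) with DOX and 51.6 with DMSO at 5 hr in sgNS, and at 52.6 and 54.8 on day 3. On day 3 DOX lowered ZBTB11 from a mean of 46.1 to 33.7 CPM in sgZBTB11-1, where it fell by 0.45 (SE 0.057) on the log2 scale, and from 45.7 to 26.6 CPM in sgZBTB11-2, where it fell by 0.78 (SE 0.056). The transcript of the targeted gene was therefore lowered in part. At 5 hr its means with DMSO and DOX were 55.5 and 55.3 CPM in sgZBTB11-1 and 55.2 and 48.6 CPM in sgZBTB11-2, without overlap in the latter. The epithelial keratin KRT8 had a median of 993 TPM (transcripts, scaled for length and library) and the mesenchymal filament VIM a median of 3332 TPM. The acinar enzyme PRSS1 was at 0 in 69 libraries, and the leukocyte markers PTPRC, CD3E and LYZ in 65, 68 and 51. Fibroblast and endothelial lists were mixed: DCN was at 0 in 51 libraries and LUM in 46, while COL1A2 ran from 94.95 to 207 TPM (median 146) and COL1A1 had a median of 0.35 TPM. PECAM1 was at 0 in 37 libraries and CDH5 had a median of 5.8 TPM (0.86 to 12.6). Transcripts of the mitochondrial genome took 13.1% ± 0.85 of counts (SD, n = 18) at 5 hr, 10.96% ± 1.02 (n = 17) on day 1, 19.8% ± 1.61 (n = 18) on day 3 and 30.7% ± 2.49 (n = 17) on day 5.

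In GRCh38.p14, HRAS (ENSG00000174775.18) lies on chromosome 11 from 532242 to 535576, and NRAS (ENSG00000213281.5) on chromosome 1 from 114704469 to 114716771. ARAF (ENSG00000078061.14) lies on chromosome X from 47561205 to 47571908, and BRAF (ENSG00000157764.14) on chromosome 7 from 140713328 to 140924929. MAP2K1 (ENSG00000169032.11) spans 66386912 to 66491544 on chromosome 15, MAP2K2 (ENSG00000126934.15) spans 4090321 to 4124122 on chromosome 19, and MAPK3 (ENSG00000102882.12) spans 30114105 to 30123220 on chromosome 16. Each value is a sum over the whole gene, exons of all its transcripts together. HRAS overlaps LRRC56 (mean of 57.1 counts per library), ARAF overlaps SYN1 (12.3 counts) and MAP2K1 overlaps SNAPC5 (188 counts). Whether counting used the strand is not given in the sources used here, so reads in those overlaps may have been shared out. Counts were not whole in 0 libraries for HRAS and ARAF and in 2 for MAP2K1. Sharing of reads was not tested.

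MAP2K1, MAP2K2 and MAPK3 had the largest falls of the 7 genes in counts over the time course (in TPM, MAP2K2 fell less than HRAS and NRAS), so the 194 bases just before each RefSeq gene start are printed below in the gene's own direction (5′ to 3′, GRCh38.p14). Capitals mark the GC box GGGCGG or its complement CCGCCC, the letters bound by SP-family factors. MAP2K1 is read on the plus strand at chr15:66386718-66386911, MAP2K2 on the minus strand at chr19:4124123-4124316 and MAPK3 on the minus strand at chr16:30123221-30123414.
MAP2K1: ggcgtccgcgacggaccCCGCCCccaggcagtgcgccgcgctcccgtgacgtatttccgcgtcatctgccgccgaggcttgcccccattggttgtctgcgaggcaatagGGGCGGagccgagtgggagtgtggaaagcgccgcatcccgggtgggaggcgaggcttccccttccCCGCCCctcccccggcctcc
MAP2K2: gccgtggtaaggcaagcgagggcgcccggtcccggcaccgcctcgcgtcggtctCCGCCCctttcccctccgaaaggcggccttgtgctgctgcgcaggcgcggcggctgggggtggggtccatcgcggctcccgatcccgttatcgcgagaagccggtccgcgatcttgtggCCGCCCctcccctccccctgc
MAPK3: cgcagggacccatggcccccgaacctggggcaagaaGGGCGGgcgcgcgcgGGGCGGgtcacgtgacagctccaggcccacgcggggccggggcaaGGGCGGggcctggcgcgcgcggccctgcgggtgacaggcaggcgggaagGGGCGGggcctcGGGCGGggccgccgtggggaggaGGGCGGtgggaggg
The MAPK3 stretch held 6 GC boxes, MAP2K1 held 3 and MAP2K2 held 2, searched on both strands. A GC box was present in 39.6% of 27305 RefSeq promoters cut to the same length. The GC content was 72.7% for MAP2K1, 74.2% for MAP2K2 and 82.0% for MAPK3, against a median of 58.8% over those promoters. A CCAAT box occurred in MAP2K1 alone of these 3 and in 28.4% of all promoters. The ETS core CCGGAA, found in 13.1% of promoters, and TATAAA, found in 8.68%, had no match in these 3 windows. These matches describe letters and do not show that a factor binds.

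Transcript levels were compared between genes in TPM, which is per transcript length. The order of the medians of the 24 group means was MAP2K2, ARAF, HRAS, MAPK3, MAP2K1, NRAS and BRAF. MAP2K2 (MEK2) stood far above the rest, with a median of 173 TPM and group means from 137 to 188. It exceeded ARAF in all 70 libraries and lay at the 96.2 percentile of 14227 genes with at least 1 TPM. ARAF (median 47.03 TPM, group means 39.2 to 51.4) and HRAS (46.8 TPM, 36.3 to 57.7) could not be ranked: ARAF was higher in 38 of 70 libraries. MAPK3 followed at 34.4 TPM (16.2 to 49.2), below HRAS in 67 of 70 libraries, and had the widest relative range of the 4 upper genes. MAP2K1 (MEK1) stood at 17.6 TPM (10.6 to 25.2), below MAPK3 and above NRAS in all 70 libraries. NRAS (7.68 TPM, 4.31 to 13.1) and BRAF (5.84 TPM, 4.21 to 7.98) were the lowest, and NRAS exceeded BRAF in 51 of 70 libraries. BRAF lay at the 40.2 percentile, so the members spread from below the middle of the expressed genes to near the top.

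**Figure D1:**
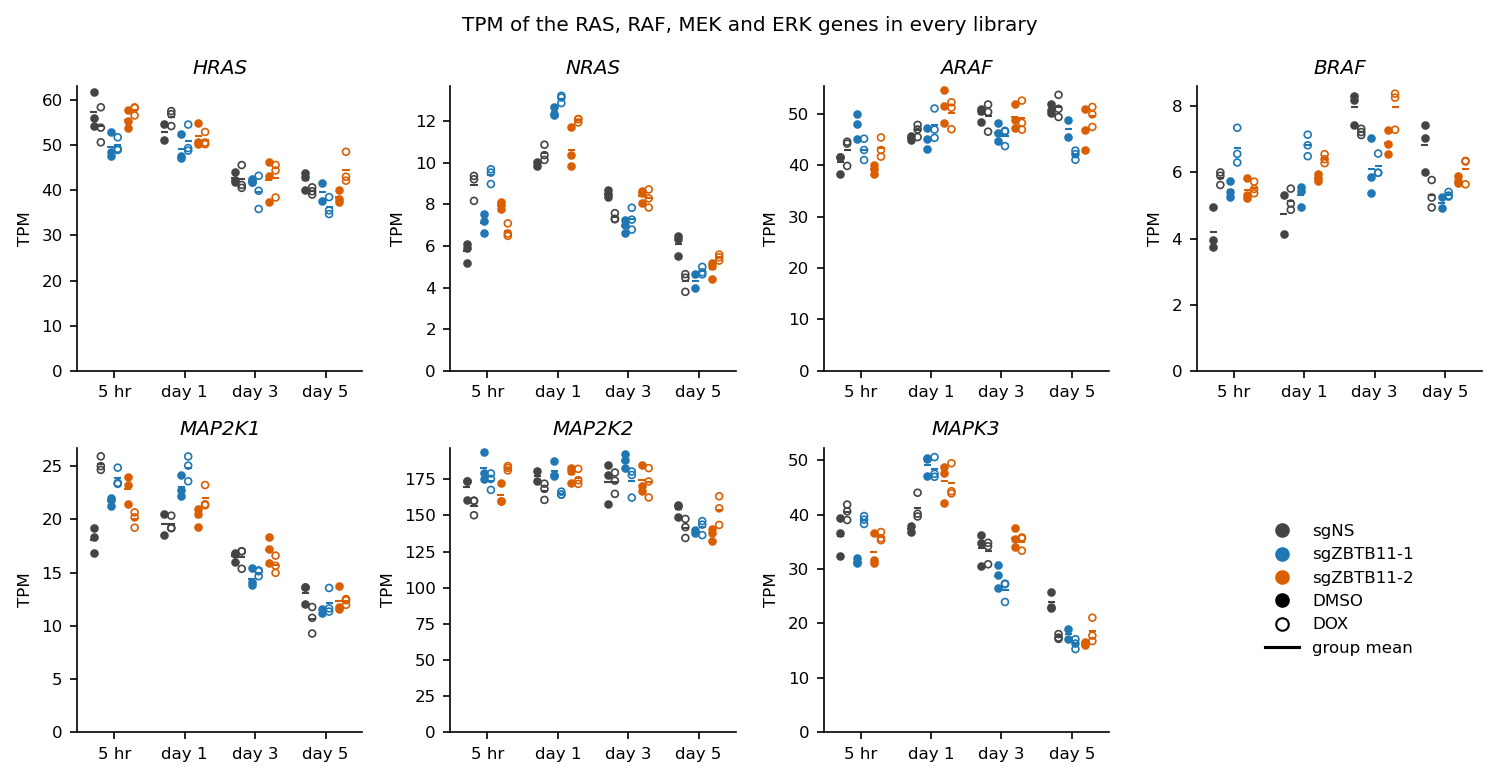
Level of each gene in TPM (vertical axes) in every library at 5 hr and on days 1, 3 and 5 (horizontal axes), coloured by line, with filled points for DMSO, open points for DOX and a dash at each group mean. MAP2K2 ran from 132 to 194 TPM over the 70 libraries and BRAF from 3.74 to 8.38 TPM, while MAPK3 ran from 15.3 to 50.55 TPM, with its highest group means on day 1 and its lowest on day 5.

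The order differed between collection times. Over both treatments HRAS was second at 5 hr (mean 54.1 TPM against 42.8 for ARAF) and on day 1 (52.01 against 47.9), and ARAF was second on day 3 (48.3 against 42) and day 5 (48.03 against 40.2). On day 5 the mean of BRAF was 5.78 TPM and that of NRAS 5.02 TPM, the reverse of the 3 earlier times. Each pair of paralogs was then followed as a log2 ratio of TPM between 5 hr (n = 9) and day 5 (n = 8) in the DMSO libraries. The ratio MAP2K2 to MAP2K1 rose from 3.05 ± 0.19 (SD) to 3.54 ± 0.11, that is from 8.34-fold to 11.6-fold in linear terms, a log2 difference of 0.49 (exact permutation test, two-sided, Benjamini-Hochberg adjusted over 3 ratios, p = 0.000494). Within a line the difference was 0.33 in sgNS, 0.53 in sgZBTB11-1 and 0.63 in sgZBTB11-2, with exact p = 0.1, 0.2 and 0.1, the smallest these group sizes allow (0.1 for 3 against 3 and 0.2 for 3 against 2). The ratio HRAS to NRAS differed by -0.01 (adjusted exact p = 0.94), but this mean covered -0.53 in sgNS, 0.40 in sgZBTB11-1 and 0.18 in sgZBTB11-2. ARAF to BRAF differed by -0.06 (adjusted exact p = 0.852), from -0.37 in sgNS to 0.17 in sgZBTB11-2. The MEK ratio depended on the unit: from counts it differed by 0.09 (adjusted exact p = 0.455), while ARAF to BRAF differed by -0.48 (adjusted exact p = 0.00074). In the DOX libraries (n = 9 at each time) all 3 TPM ratios passed: HRAS to NRAS differed by 0.35 (adjusted exact p = 0.0142), ARAF to BRAF by 0.25 (adjusted exact p = 0.00537) and MAP2K2 to MAP2K1 by 0.75 (adjusted exact p = 0.000123). These tests pooled the lines. With DOX, HRAS means fell from 54.3 to 39.8 TPM in sgNS, 49.96 to 36.3 in sgZBTB11-1 and 57.7 to 44.6 in sgZBTB11-2. NRAS means fell from 8.92 to 4.31, 9.4 to 4.79 and 6.73 to 5.45 in the same order. BRAF means fell from 5.84 to 5.32 in sgNS and 6.74 to 5.33 in sgZBTB11-1, but rose from 5.53 to 6.11 in sgZBTB11-2. ARAF means went from 42.9 to 51.3 in sgNS, 43.04 to 42.01 in sgZBTB11-1 and 43.3 to 49.6 in sgZBTB11-2. In sgZBTB11-2 the HRAS mean divided by the NRAS mean was slightly lower on day 5 than at 5 hr, opposite to the pooled difference. DOX ratios were not tested within lines.

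Culture time was compared in the DMSO libraries, averaged over the 3 lines, in a fit of counts from all 70 libraries. Time in culture and any handling that went with a collection time cannot be told apart here or in the levels above. From 5 hr to day 5 the RAS, MEK and ERK genes fell, BRAF rose and ARAF did not pass the test. In all, 6 of the 7 genes passed, where 85.4% of all genes tested passed, a share close to theirs. The median change of all genes was 0.04. MAP2K1, MAP2K2 and MAPK3 ended near 1 log2 unit down. In bulk RNA, fewer cells expressing a gene and less of its RNA per cell cannot be told apart.

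Of the RAS genes, HRAS had 48.8 to 64.6 CPM at 5 hr (median 53.9), 39.7 to 50.8 on day 1 (42.8), 31.5 to 37.3 on day 3 (35.8) and 35.4 to 42.1 on day 5 (38.6). Every day 1 library lay above every day 3 library, while days 3 and 5 overlapped. From 5 hr to day 5 HRAS fell by 0.50 (log2, SE 0.032, adjusted p = 1.01e-26). NRAS had 27.4 to 38.3 CPM at 5 hr (median 35.3), 40.3 to 51.2 on day 1 (46.4), 28.7 to 34.9 on day 3 (32.5) and 21.03 to 28.1 on day 5 (24.8). Its day 1 libraries lay above all others, and its day 5 libraries below all of day 3. NRAS rose by 0.44 from 5 hr to day 1, then fell by 0.52 and by 0.40 in the next steps, and fell by 0.48 (SE 0.039, adjusted p = 1.55e-20) from 5 hr to day 5.

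Of the RAF genes, BRAF had 18.5 to 25.3 CPM at 5 hr (median 24.2), 23.3 to 28.2 on day 1 (26.1), 28.3 to 35.98 on day 3 (32.1) and 29.9 to 35.4 on day 5 (31.8). No 5 hr library reached the lowest day 3 or day 5 library. BRAF rose by 0.17 to day 1 and by 0.31 to day 3, and by 0.50 (SE 0.036, adjusted p = 7.66e-23) from 5 hr to day 5. ARAF had 52.4 to 71.1 CPM at 5 hr (median 61.5), 59.8 to 72.7 on day 1 (66.4), 49.8 to 54.6 on day 3 (52.7) and 58.1 to 65.7 on day 5 (64.6). Its day 3 libraries lay below all of days 1 and 5. From 5 hr to day 5 the ARAF difference was 0.02 (SE 0.026, adjusted p = 0.461).

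Of the MEK genes, MAP2K1 had 35.9 to 45.7 CPM at 5 hr (median 40.9), 34.7 to 41.8 on day 1 (36.97), 21.2 to 26.9 on day 3 (23.3) and 19.4 to 24.2 on day 5 (20.4). Every library of 5 hr and day 1 lay above every library of days 3 and 5, and MAP2K1 fell by 0.98 (SE 0.037, adjusted p = 9.76e-42) from 5 hr to day 5. MAP2K2 had 220.0 to 273.8 CPM at 5 hr (median 237), 229 to 252 on day 1 (243), 144 to 165 on day 3 (158) and 121 to 142 on day 5 (134). Its first 2 times overlapped and every later step was without overlap. MAP2K2 fell by 0.89 (SE 0.022, adjusted p = 1.44e-56), of which 0.63 was between days 1 and 3. For ERK1, MAPK3 had 45.7 to 63.6 CPM at 5 hr (median 53.9), 58.9 to 71.4 on day 1 (67.2), 36.3 to 46.98 on day 3 (43.3) and 22.2 to 31.98 on day 5 (26.2). It rose by 0.32 to day 1, fell by 0.63 to day 3 and by 0.68 to day 5, each step after day 1 without overlap. Its change from 5 hr to day 5 was -0.99 (SE 0.037, adjusted p = 2.23e-42).

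Step by step, 6 of 7 genes passed from 5 hr to day 1 (66.3% of all genes), with MAP2K2 at -0.0022 (adjusted p = 0.934). From day 1 to day 3 all 7 passed (78.9% of all genes), 6 of them downward and BRAF upward. From day 3 to day 5, 6 of 7 passed (64.7% of all genes): HRAS rose by 0.17 and ARAF by 0.28, NRAS, MAP2K1, MAP2K2 and MAPK3 fell, and BRAF was at 0.02. On the log2(TPM + 1) scale those 2 rises turned to -0.075 for HRAS and -0.0067 for ARAF, neither past the test, and the fall of ARAF from day 1 to day 3 turned to 0.038. That scale is not centred on the typical gene. Its median over all genes was -0.16 from day 3 to day 5, below both values, and 0.05 from day 1 to day 3. The mitochondrial share of counts rose over the same days, and leaving the mitochondrial genes out kept all these calls.

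**Figure D2:**
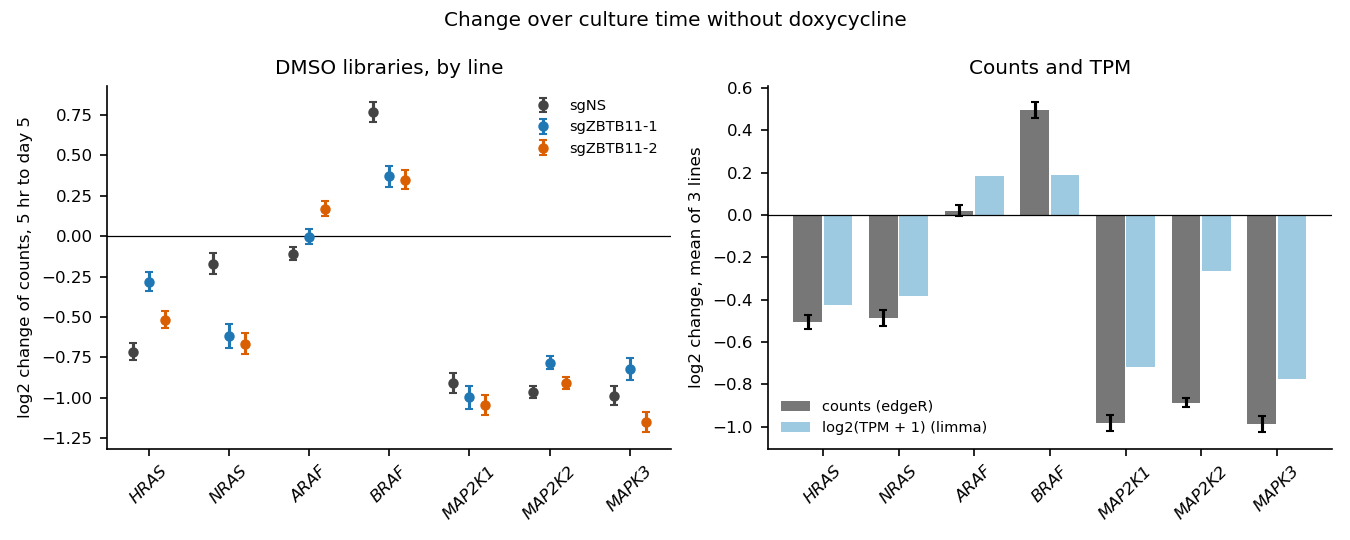
Left, log2 change of counts from 5 hr to day 5 in DMSO libraries for each gene and line, with SE bars; right, the mean of the 3 lines from counts (edgeR, SE bars) beside the same change of log2(TPM + 1) from limma. MAP2K2 shows the widest gap between the scales, -0.89 from counts and -0.26 from TPM, and ARAF is at 0.02 and 0.19.

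On the TPM scale the same falls were smaller. From 5 hr to day 5 the limma change of log2(TPM + 1) was -0.42 for HRAS, -0.38 for NRAS, 0.19 for ARAF, 0.19 for BRAF, -0.72 for MAP2K1, -0.26 for MAP2K2 and -0.77 for MAPK3, and all 7 passed. MAP2K2 had 172 ± 10.96 TPM at 5 hr (SD, n = 9), 179 ± 4.89 on day 1 (n = 8), 178 ± 11.2 on day 3 (n = 9) and 144 ± 9.19 on day 5 (n = 8). Its day 1 to day 3 change, -0.63 from counts, was -0.01 on this scale (adjusted p = 0.863). MAPK3 kept its shape, with 33.6 ± 3.15, 45.1 ± 5.39, 32.8 ± 3.70 and 19.6 ± 3.76 TPM at the 4 times. MAP2K1 went from 20.9 ± 2.35 TPM at 5 hr to 12.4 ± 1.09 on day 5. The ratio of counts to TPM stands for the effective transcript length that the authors' estimate used, up to a factor per library. Relative to the median gene, it was 0.593 for MAP2K2 at 5 hr, 0.627 on day 1, 0.428 on day 3 and 0.374 on day 5. Its log2 shift from day 1 to day 5 was -0.75, and 1.44% of 6531 well-counted genes had a shift as large. For HRAS the same ratio went from 0.408 at 5 hr to 0.396 on day 5. For BRAF it rose from 1.87 at 5 hr to 2.23 on day 1. BRAF with DMSO had 5.05 ± 0.74 TPM at 5 hr (SD, n = 9) and 5.37 ± 0.59 on day 1 (n = 8). The log2 shift of the ratio from day 1 to day 5 was -0.25 for ARAF, -0.23 for MAP2K1 and -0.19 for MAPK3. It was -0.0076 for HRAS, 0.025 for NRAS and 0.0023 for BRAF. MAP2K2 counts were not whole in 43 of 70 libraries, against 2 for MAP2K1 and 0 for the other members. RSEM gives such counts where reads map to more than 1 gene. The causes of the MAP2K2 shift and of the other shifts were not tested.

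**Figure D3:**
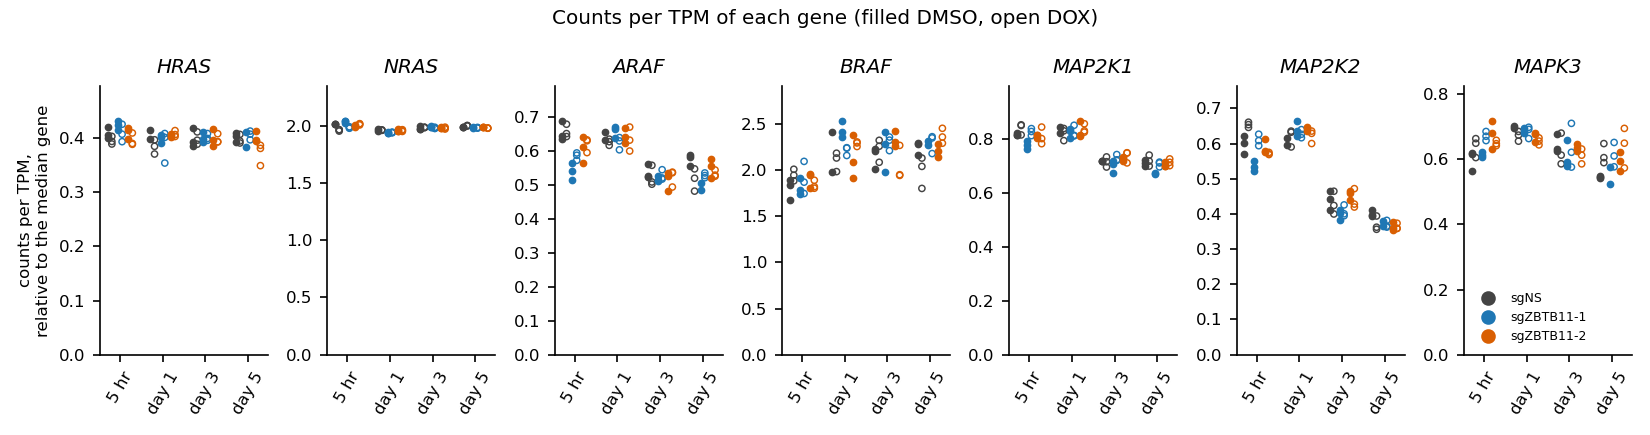
Counts per TPM relative to the median gene (vertical axis) in every library, by time and gene. MAP2K2 moves from a mean of 0.593 at 5 hr to 0.374 on day 5, and HRAS stays between means of 0.396 and 0.408.

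The time course differed between lines for HRAS, NRAS and BRAF. Within lines, 7 of 7 genes passed in sgNS (76.6% of all genes), 6 of 7 in sgZBTB11-1 (73.7%) and 7 of 7 in sgZBTB11-2 (77.5%). From 5 hr to day 5 HRAS fell by 0.72 in sgNS, by 0.28 in sgZBTB11-1 and by 0.52 in sgZBTB11-2. NRAS changed by -0.17, -0.62 and -0.67 in the same order, and BRAF by 0.77, 0.37 and 0.35. MAP2K1 (-0.91, -0.997, -1.04) and MAPK3 (-0.99, -0.82, -1.15) moved alike in sign in the 3 lines. Against sgNS, the sgZBTB11-1 course differed by 0.43 for HRAS, -0.45 for NRAS, -0.40 for BRAF and 0.18 for MAP2K2, which makes 4 of 7 genes where 19.7% of all genes passed. The sgZBTB11-2 course differed by 0.20 for HRAS, -0.49 for NRAS, 0.28 for ARAF and -0.42 for BRAF, again 4 of 7 against 20.8%. Both comparisons share the sgNS libraries. The cells were in DMSO, so the lines differed without added DOX. On day 3 in DMSO ZBTB11 had means of 54.8 CPM in sgNS, 46.1 in sgZBTB11-1 and 45.7 in sgZBTB11-2. At 5 hr they were 51.6, 55.5 and 55.2. Whether any repression occurred without DOX was not tested. The mitochondrial share on day 5 was 25.98% to 26.4% in sgNS, 33.5% to 33.7% in sgZBTB11-1 and 30.96% to 31.5% in sgZBTB11-2. Its part in these differences was not tested.

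Line differences in DMSO, averaged over the 4 times, were small. In sgZBTB11-1, HRAS was at -0.09 (log2) against sgNS, and ARAF and MAPK3 at -0.11 each, 3 of 7 genes where 30.1% of all genes passed. In sgZBTB11-2, HRAS was at -0.09, ARAF at -0.10 and MAP2K2 at -0.09, 3 of 7 against 19.7%. The HRAS call in sgZBTB11-1 was lost without sgNS DMSO day 3 replicate 1 (-0.07, adjusted p = 0.0571). The averages hid signs that turned with time. HRAS in sgZBTB11-1 was at -0.29 at 5 hr and -0.31 on day 1, both past the test, and at 0.11 and 0.14 on days 3 and 5, which did not pass. MAPK3 in the same line was at -0.31 at 5 hr, 0.20 on day 1 and -0.18 on day 3, all past the test. By edgeR the differences from sgNS were most frequent at 5 hr, with 6 of 7 genes in sgZBTB11-1 (27.8% of all genes) and 6 of 7 in sgZBTB11-2 (28%). With a trend of all genes on transcript length and GC content removed (described below) these were 4 and 2 of 7. By limma on TPM they were 6 and 3, and the shares of all genes under these settings are not given here. For sgZBTB11-2, day 5 had as many with the trend removed (2) and more by limma (4). Later counts were 3 of 7 on day 1 (19.3% of all genes), 3 on day 3 (19%) and 1 on day 5 (19.7%) in sgZBTB11-1, and 1 on day 1 (10.6%) and 2 on day 5 (16%) in sgZBTB11-2. At 5 hr ARAF in sgZBTB11-2 was at -0.31, NRAS at 0.32 and BRAF at 0.31. On day 3, sgZBTB11-2 had 0 of 7 genes past the edgeR test (4.12% of all genes), 1 at an unadjusted p under 0.05, and 0 by DESeq2 and by limma on TPM.

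The response to DOX was tested within each line at each time. It was widest at 5 hr, also in the non-targeting line. In sgNS at 5 hr 6 of 7 genes passed, where 40.9% of all genes did. HRAS had 61.7, 64.6 and 59.2 CPM with DMSO and 44.8, 51.8 and 47.8 with DOX, without overlap, and fell by 0.34 (SE 0.049, adjusted p = 2.47e-07). NRAS went the other way, from 31.2, 27.4 and 33.2 CPM to 39.7, 36.4 and 41.4, also without overlap, and rose by 0.38 (SE 0.062, adjusted p = 2.74e-06). BRAF had 21.7, 19.6 and 18.5 CPM with DMSO and 24.8, 25.7 and 25.8 with DOX and rose by 0.37. These changes are in the line whose guide does not target ZBTB11. MAP2K1 rose by 0.30 (SE 0.053, adjusted p = 1.03e-05), MAP2K2 fell by 0.20 and ARAF by 0.13, while MAPK3 was at 0.04 and did not pass. The ARAF value turned to 0.078 on the log2(TPM + 1) scale, where the median of all genes was 0.17. The ARAF call was lost without DMSO replicate 3 (adjusted p = 0.0597) or DOX replicate 3 (adjusted p = 0.142).

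In sgZBTB11-1 at 5 hr 5 of 7 genes passed (32.8% of all genes), with the same signs as sgNS for the 4 RAS and RAF genes. HRAS fell by 0.14, ARAF by 0.13, and NRAS and BRAF rose by 0.27 each. MAPK3, which did not pass in sgNS, had 46, 45.7 and 47.5 CPM with DMSO and 58.3, 56.1 and 61.4 with DOX. These libraries did not overlap, and MAPK3 rose by 0.34 (SE 0.053, adjusted p = 3.11e-06). MAP2K1 was at 0.13 (adjusted p = 0.0508). The HRAS call was lost without DMSO replicate 1 (adjusted p = 0.136) or 2 (0.0785) or DOX replicate 1 (0.0821) or 3 (0.0834). The ARAF call was lost without any one library but DOX replicate 3, with a change of -0.07 (adjusted p = 0.306) without DOX replicate 1.

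In sgZBTB11-2 at 5 hr 4 of 7 genes passed (17% of all genes), each with the sign opposite to its change in sgNS. NRAS had 38.1, 38.3 and 37.5 CPM with DMSO and 31.9, 34.6 and 31.2 with DOX and fell by 0.21 (SE 0.061, adjusted p = 0.0118). ARAF rose by 0.20, MAP2K1 fell by 0.17 and MAP2K2 rose by 0.13, each without overlap. NRAS lost its call without DOX replicate 3 (adjusted p = 0.0765), MAP2K1 without DMSO replicate 1 (0.0725) or 2 (0.108) or DOX replicate 3 (0.0612), and MAP2K2 without DMSO replicate 2 (0.127) or DOX replicate 2 (0.082). The difference between the guides, tested directly, passed for NRAS (-0.48), ARAF (0.33), BRAF (-0.27), MAP2K1 (-0.30) and MAPK3 (-0.25), 5 of 7 genes where 35.1% of all genes passed. Over the 3 lines together, 5 of 7 genes passed at 5 hr (32.9% of all genes), with BRAF at 0.21 and HRAS at -0.15; MAP2K1 there, at 0.09, was lost without sgNS DMSO or DOX replicate 2, sgZBTB11-1 DOX replicate 1 or sgZBTB11-2 DMSO replicate 3 (adjusted p from 0.0595 to 0.0955). In the guide difference BRAF was lost without sgZBTB11-1 DOX replicate 2 (adjusted p = 0.0513) or sgZBTB11-2 DOX replicate 3 (0.0536). The mitochondrial share moved with the same split: at 5 hr it was 13.7% to 14.3% with DMSO and 11.9% to 12.4% with DOX in sgNS, 14.04% to 14.1% and 12.2% to 12.4% in sgZBTB11-1, and 12.5% to 12.7% and 13.1% to 13.4% in sgZBTB11-2. Its part in these differences was not tested.

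**Figure D4:**
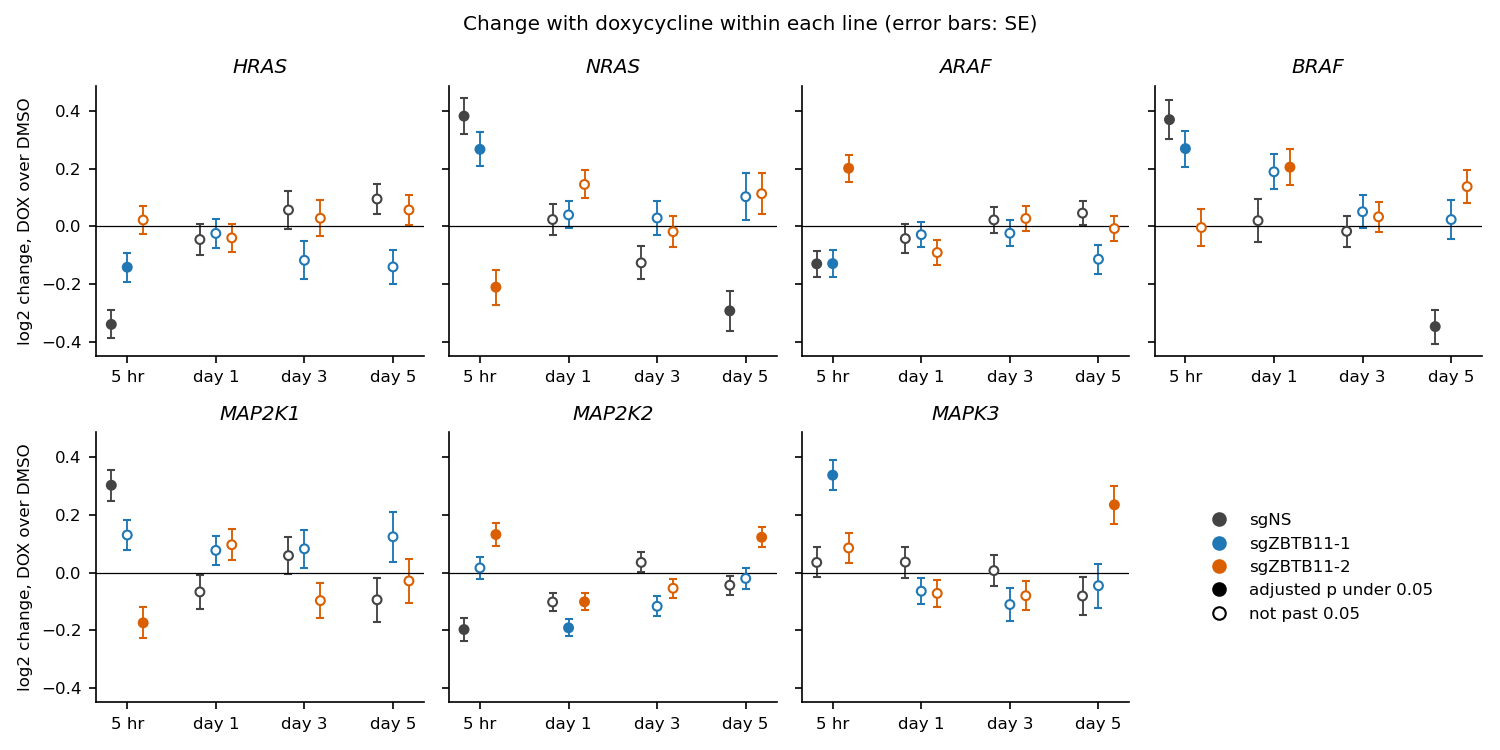
Log2 change with DOX over DMSO (vertical axis, SE bars) for each gene at each time (horizontal axis), by line, filled where the adjusted p is under 0.05. At 5 hr NRAS sits at 0.38 in sgNS, 0.27 in sgZBTB11-1 and -0.21 in sgZBTB11-2, and on day 3 no point is filled.

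The 5 hr changes in sgNS ran with the base composition of the transcripts. GC content was 64.8% for HRAS, 63.3% for MAP2K2, 60.8% for MAPK3 and 56.1% for ARAF, and 51.2% for MAP2K1, 41.7% for BRAF and 38.4% for NRAS. In sgNS the 2 genes of lowest GC content rose most and HRAS, of highest GC content, fell most. A trend over all genes on transcript length and GC content was then removed before testing, an alternative chosen after seeing the data. In sgNS HRAS was then at -0.00 (-2.5e-05), NRAS at 0.04, BRAF at 0.08 and ARAF at 0.04, none past the test, while MAP2K1 rose by 0.36 (adjusted p = 2.15e-07), MAP2K2 by 0.09 and MAPK3 by 0.26. In sgZBTB11-1 MAPK3 rose by 0.44 (adjusted p = 4.71e-11) with the trend removed, and HRAS, NRAS, ARAF and BRAF no longer passed. In sgZBTB11-2 ARAF rose by 0.14 and MAP2K1 fell by 0.20, and NRAS and MAP2K2 no longer passed. MAP2K1 in sgNS and sgZBTB11-2 and MAPK3 in sgZBTB11-1 were therefore as large with the trend removed as without it.

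**Figure D5:**
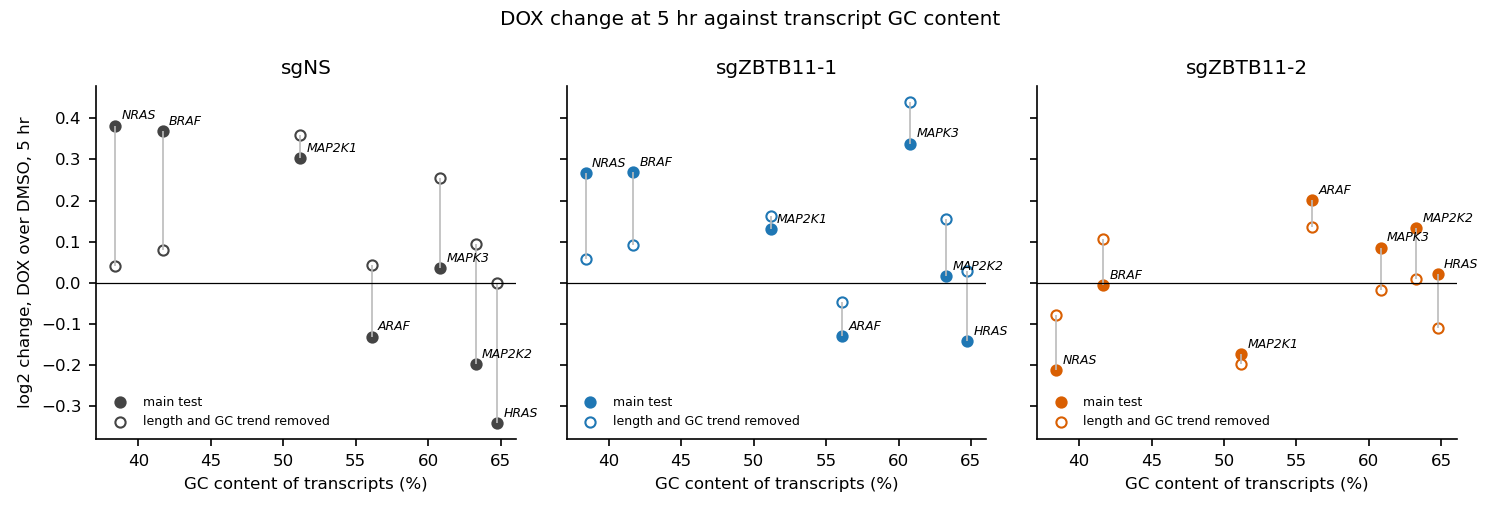
Log2 change with DOX at 5 hr (vertical axis) against transcript GC content in percent (horizontal axis) for the 7 genes in each line, from counts, and again after removing the trend on length and GC of all genes. In sgNS the points run from 0.38 for NRAS (38.4% GC) to -0.34 for HRAS (64.8% GC) and are at 0.04 and 0.00 with the trend removed, while MAP2K1 goes from 0.30 to 0.36.

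On day 1 few members moved. In sgNS 0 of 7 genes passed the edgeR test (2.19% of all genes), 1 was at an unadjusted p under 0.05 and 0 passed by DESeq2 or by limma on TPM. In sgZBTB11-1 1 gene passed (4.84% of all genes): MAP2K2 had 235, 244 and 242 CPM with DMSO and 201, 213 and 208 with DOX, without overlap, and fell by 0.19 (SE 0.029, adjusted p = 2.52e-05). With the length and GC trend removed MAP2K2 still fell, by 0.14. In sgZBTB11-2 2 genes passed (7.88% of all genes), with BRAF at 0.20 and MAP2K2 at -0.10. Neither held with the trend removed, by DESeq2 or by limma. BRAF lost its call without DMSO replicate 2 (adjusted p = 0.269), DMSO replicate 3 (0.0708), DOX replicate 1 (0.124) or DOX replicate 3 (0.113), and MAP2K2 without any one library but DMSO replicate 1 (adjusted p from 0.0582 to 0.128). Averaged over the 3 lines on day 1, 2 genes passed (16.6% of all genes): MAP2K2 fell by 0.13 (SE 0.017, adjusted p = 5.18e-07) and BRAF rose by 0.14.

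On day 3 no member passed in any line, and ZBTB11 was lowered with DOX in both guide lines. The edgeR counts were 0 of 7 in sgNS (0.835% of all genes), in sgZBTB11-1 (0.757%) and in sgZBTB11-2 (1.17%), with 1, 1 and 0 genes at an unadjusted p under 0.05 and 0 by DESeq2 and by limma on TPM in each. The mean of the 3 lines also had 0 of 7 (3.32% of all genes), with 1 gene at an unadjusted p under 0.05 and 0 by DESeq2 and by limma. Day 3 was not the only time with less ZBTB11, and some members passed on days 1 and 5. On day 1 ZBTB11 means with DMSO and DOX were 47.9 and 38.97 CPM in sgZBTB11-1 and 44.6 and 29.3 in sgZBTB11-2. On day 5 they were 48.7 and 36.3 CPM in sgZBTB11-1 and 52.7 and 28.3 in sgZBTB11-2. In sgNS they were 51.3 and 46.8 CPM on day 1 and 56.1 and 50.8 on day 5.

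On day 5, the calls in sgNS were NRAS and BRAF, 2 of 7 where 17.3% of all genes passed. BRAF had 35.1, 31.3 and 35.4 CPM with DMSO and 26.4, 27.4 and 26.8 with DOX, without overlap, and fell by 0.35 (SE 0.059, adjusted p = 1.05e-05). NRAS had 28.1, 25.1 and 27.7 CPM with DMSO and 22.8, 19.5 and 23.7 with DOX, without overlap, and fell by 0.29 (SE 0.070, adjusted p = 0.00171). Both calls held with the length and GC trend removed, at -0.26 and -0.18. NRAS and BRAF had risen with DOX in this line at 5 hr, as had MAP2K1, which was not called on day 5. The mitochondrial share there was 25.98% to 26.4% with DMSO and 29.4% to 29.8% with DOX, and its part in these changes was not tested. In sgZBTB11-1 0 of 7 genes passed the edgeR test (1.14% of all genes), 2 were at an unadjusted p under 0.05 and 0 passed by DESeq2 or limma. In sgZBTB11-2, MAPK3 had 24.3, 25.3 and 22.2 CPM with DMSO and 28.9, 28.01 and 27.8 with DOX, without overlap, and rose by 0.24 (SE 0.067, adjusted p = 0.0156). MAP2K2 rose by 0.12, which made 2 of 7 genes (9% of all genes). MAPK3 lost its call without DMSO replicate 3 (adjusted p = 0.13) or DOX replicate 1 (0.0888), MAP2K2 without DMSO replicate 2 (0.0585) or DOX replicate 2 (0.138), and neither held with the trend removed (0.19 and 0.07). The mean of the 3 lines had 0 of 7 genes past the edgeR test (3.14% of all genes), 0 at an unadjusted p under 0.05 and 0 by DESeq2 and by limma.

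The net response is the DOX change averaged over the 2 ZBTB11 guides minus that in sgNS, which asks what DOX did beyond its effect in the control line. At 5 hr all 7 genes passed, where 30% of all genes did: HRAS was at 0.28, NRAS at -0.35, ARAF at 0.17, BRAF at -0.24, MAP2K1 at -0.32, MAP2K2 at 0.27 and MAPK3 at 0.18. ZBTB11 itself was at -0.26 in this contrast at 5 hr, which includes a higher mean with DOX in sgNS (57.2 CPM against 51.6 with DMSO). Its means with DMSO and DOX were 55.5 and 55.3 CPM in sgZBTB11-1 and 55.2 and 48.6 in sgZBTB11-2. For 6 of the 7 members each net value has the sign opposite to the DOX change in sgNS, whose libraries enter it. Taken by guide the sizes differed: NRAS was at -0.12 (SE 0.085) for sgZBTB11-1 and -0.59 (SE 0.087) for sgZBTB11-2, both set against the same sgNS libraries. With the length and GC trend removed 1 of the 7 net calls was left, MAP2K1 at -0.37 (adjusted p = 1.16e-05). The share of all genes with the trend removed is not given here, so this drop cannot be set against all genes. ARAF lost its call without sgZBTB11-1 DOX replicate 3 (adjusted p = 0.0538), sgZBTB11-2 DMSO replicate 2 (0.0501) or sgNS DOX replicate 3 (0.105), and BRAF without sgNS DMSO replicate 2 (0.0681) or 3 (0.091). MAPK3 lost its call without any of 6 libraries and was at 0.09 (adjusted p = 0.347) without sgNS DMSO replicate 2; the others were sgNS DOX replicates 1 and 3, sgZBTB11-1 DOX replicate 3, sgZBTB11-2 DMSO replicate 2 and sgZBTB11-2 DOX replicate 3.

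On day 1 the net response had 0 of 7 members past the edgeR test (0.0737% of all genes), with 2 at an unadjusted p under 0.05, and on day 3 it had 0 of 7 (0.505%), with 1 at an unadjusted p under 0.05. DESeq2 and limma called 0 on both days. ZBTB11 was at -0.56 (SE 0.065, adjusted p = 1.04e-06) in the day 3 contrast. On day 5 NRAS (0.40, SE 0.089, adjusted p = 0.000555) and BRAF (0.43, SE 0.074, adjusted p = 1.09e-05) passed, 2 of 7 where 19.2% of all genes did. Both held with the trend removed, at 0.22 and 0.29, and each was positive for either guide, with NRAS at 0.40 and 0.41 and BRAF at 0.37 and 0.48. In the guide lines themselves neither gene passed with DOX on day 5, and the sgNS libraries had fallen by 0.29 and 0.35. The guides did not differ past the test for any member after 5 hr: edgeR called 0 of 7 on day 1 (0.0614% of all genes), on day 3 (0.018%) and on day 5 (2.58%), with 1, 0 and 3 genes at an unadjusted p under 0.05 and 0 by DESeq2 and by limma.

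The surrounding pathway was followed through 8 lists holding 129 genes, none of them a member. Over the 5 days in DMSO the lists split rather than moved one way, against a median change of 0.04 over all genes, of which 85.4% passed. Of 18 receptors and adaptors, listed as acting upstream of RAS, 6 rose, 9 fell and 3 did not pass (median -0.18), with the adaptor GAB1 at 1.92 and the receptor MET at 1.91. Of 11 RAS off-switches, which speed GTP hydrolysis or remove RAS, 7 rose, 3 fell and 1 did not pass (median 0.38), with RASA1 at 1.23 and RASAL2 at -1.55. Of 12 genes that process RAS for the membrane, 4 rose, 7 fell and 1 did not pass (median -0.83), with the methyltransferase ICMT at -1.09 and ARL2 at -1.11. Of 13 other RAS-family GTPases 4 rose, 8 fell and 1 did not pass (median -0.70), with RRAS2 at -2.21 and ERAS at 3.30 (SE 0.303).

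Below RAS, 15 of 22 scaffolds and RAF regulators fell, 4 rose and 3 did not pass (median -0.53), with the 14-3-3 protein gene YWHAQ and the ERK-binding PEA15 at -1.86 each. Of 14 ERK substrates 4 rose, 7 fell and 3 did not pass (median -0.12), with the transcription factor ETS1 at -4.16 and the kinase gene RPS6KA5 at 2.26. Of 20 genes of other MAP kinase modules, which include the p38 and JNK branches, 8 rose, 9 fell and 3 did not pass (median -0.0032), with the p38 activator MAP2K6 at 2.61 and the p38 kinase MAPK13 at 1.96. Of 16 ERK output transcripts, genes induced by active ERK, 6 rose, 9 fell and 1 did not pass (median -0.39). Within that list FOS was at 3.01 and FOSL1, another FOS-family member, at -3.16.

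In the net DOX response on day 3 no list but the ERK output transcripts had a gene past the test, and there 2 of 16 rose, SPRY1 (0.23, adjusted p = 0.0475) and EGR1 (0.14, adjusted p = 0.0499), against 0.505% of all genes. With the length and GC trend removed 1 of them passed. On day 5 (19.2% of all genes, median of all genes 8.2e-05) 8 of 16 output transcripts rose, 1 fell and 7 did not pass (median 0.12), with FOSL1 at 0.76 and DUSP5, an ERK phosphatase gene, at 0.42. In sgNS on day 5, whose libraries enter that contrast, 0 of the 16 rose with DOX, 7 fell and 9 did not pass (median -0.09). With DOX on day 3, 1 of the 16 rose and 3 fell in sgNS. On that day 1 rose and 1 fell in sgZBTB11-1, and 0 rose and 1 fell in sgZBTB11-2. In the day 5 net response 5 of 11 off-switches were higher and 0 lower (median 0.26, RASAL2 0.41). With the trend removed 2 were higher and 3 lower. With DOX itself on day 5, 0 of the 11 rose in any line. The number that fell was 6 in sgNS (median -0.22), 1 in sgZBTB11-1 and 0 in sgZBTB11-2. Among scaffolds 6 of 22 rose and 8 fell in the day 5 net response (median -0.04). In that list SHOC2, a RAF activator, was at 0.63 and the chaperone gene HSP90AA1 at -0.57.

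In sgNS at 5 hr (40.9% of all genes past the test) 13 of 22 scaffolds and RAF regulators rose, 4 fell and 5 did not pass (median 0.13; ERBIN 0.61, SHOC2 0.49). In sgZBTB11-2 at 5 hr 2 of the 22 rose, 13 fell and 7 did not pass (median -0.12), against 17% of all genes. The median of this list thus had opposite signs in the 2 lines at 5 hr, like NRAS and MAP2K1. With the trend removed 14 rose and 3 fell in sgNS and 1 rose and 10 fell in sgZBTB11-2.

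Genes whose group means ran most like each member's were found by Pearson's r of mean log2 CPM over the 24 groups among 10801 genes, which share libraries, depth and the strong time course. MAP2K1 ran closest to ABCE1 (r = 0.996), a ribosome recycling factor, and MAP2K2 to TRIM28 (0.99), a co-repressor. MAPK3 ran closest to MFAP1 and BIRC5 (0.99 each), NRAS to CPSF2 (0.98) and HRAS to FAM174C (0.97), while ARAF had no gene above MGAT4B at 0.89. Among the members, MAP2K1 and MAP2K2 had r = 0.95, NRAS and MAPK3 0.93, and BRAF and HRAS -0.90. These are descriptions of 24 group means with no test.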

How the data were processed

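RNA was sequenced as poly(A) libraries in paired reads, per the labels' protocols. The deposited table gives an expected count and a TPM value per gene and library; the submitters' processing notes list RSEM and GRCh38.p14, with aligner, annotation release and strand setting not given in the sources used here. Expected counts, estimated by the authors, were rounded to whole numbers (5.13% were not whole). The 68 pairs of replicate libraries differed by more than counting noise (chi-square per degree of freedom 1.33 to 4.93) and none were identical.

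Counts were tested with edgeR 4.0.16 (quasi-likelihood F test, robust, TMM scaling, filterByExpr, R 4.3.3): DOX contrasts in 1 fit per time, line and culture-time contrasts in 1 fit of all libraries. P-values were Benjamini-Hochberg adjusted over all genes and a gene was called below 0.05. CPM values use TMM-scaled library sizes. Authors' TPM values, as deposited, were used for levels, and as log2(TPM + 1) with limma 3.58.1 as an alternative; DESeq2 1.42.0, RLE scaling, no filter, a length trend, mitochondrial genes left out, each library left out and a replicate block were others. A length and GC trend (lowess span 0.3, GENCODE 29 transcripts, 93.3% of detected genes) was added after seeing the data. Paralog ratios used exact permutation tests (scipy 1.17.1).

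On simulated data the day 3 net contrast recovered 42% of genes changed by 0.25 log2 units and 98% of those changed by 1. The genes were members by name, and named list genes are the 2 called genes of largest change per list; members and lists were chosen with earlier results of these data known. In TPM, 1 is the pseudocount. RefSeq gave the promoter sequences for the 3 genes shown. A few genes that the naming rules select are not reported here.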

Additional observations from a re-analysis of the deposited data

Results flagged for a closer look

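Several contrasts differed between lines by a direct test. At 5 hr the DOX change in the ZBTB11 guide lines minus that in sgNS was 0.28 for HRAS, -0.35 for NRAS, 0.17 for ARAF, -0.24 for BRAF, -0.32 for MAP2K1, 0.27 for MAP2K2 and 0.18 for MAPK3 (log2). On day 5 it was 0.40 for NRAS and 0.43 for BRAF. The DOX change of sgZBTB11-2 minus that of sgZBTB11-1 at 5 hr was 0.33 for ARAF, -0.25 for MAPK3, -0.27 for BRAF, -0.30 for MAP2K1 and -0.48 for NRAS, although both guides are directed at the same gene.

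The 5-day course in DMSO also differed from sgNS, by 0.18 for MAP2K2, -0.40 for BRAF, 0.43 for HRAS and -0.45 for NRAS in sgZBTB11-1, and by 0.28 for ARAF, -0.42 for BRAF, 0.20 for HRAS and -0.49 for NRAS in sgZBTB11-2. These differences share the sgNS libraries and are not independent of each other.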

How the results depend on the processing

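The called member results in edgeR numbered 96. Shares of all genes were given above for the main edgeR fit only. Member counts under other settings therefore cannot be set against all genes. RLE scaling, the replicate block and leaving out mitochondrial genes kept all 96, no filter on low counts kept 90, DESeq2 83, the length trend 80, limma on log2(TPM + 1) 57 and the length and GC trend 53. Over the 4 times, DOX calls of members were 8 in sgNS (5 with the length and GC trend removed), 6 in sgZBTB11-1 (3 by limma), 8 in sgZBTB11-2 (4 by DESeq2, 2 by limma and 2 with the trend removed), 7 in the mean of the lines (4 with the trend removed) and 9 in the net response (3 with the trend removed). Line calls averaged over time were 3 in sgZBTB11-1 (1 with the trend removed) and 3 in sgZBTB11-2 (0 by limma, 1 with the trend removed), and calls from 5 hr to day 1 were 6 (3 by limma). Leaving out 1 library gave 7 to 8 DOX calls in sgNS, 4 to 6 in sgZBTB11-1, 6 to 10 in sgZBTB11-2, 6 to 8 in the mean and 7 to 10 net, 2 to 3 line calls in sgZBTB11-1 and 3 in sgZBTB11-2, and 6, 7, 6 and 6 culture-time calls as in the full fit.

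Signs turned under limma for ARAF with DOX at 5 hr in sgNS (0.078), HRAS in sgZBTB11-1 (0.0084), ARAF net at 5 hr (-0.080), ARAF in sgZBTB11-1 against sgNS over all times (0.0019) and at 5 hr (0.23), MAP2K2 there at 5 hr (0.11), MAP2K1 from 5 hr to day 1 (0.0065), ARAF from day 1 to day 3 (0.038), and HRAS (-0.075) and ARAF (-0.0067) from day 3 to day 5. With the length and GC trend removed they turned at 5 hr for ARAF (0.043) and MAP2K2 (0.095) with DOX in sgNS, HRAS in sgZBTB11-1 (0.029), the net values of HRAS (-0.040), BRAF (0.020), MAP2K2 (-0.012) and MAPK3 (-0.045), BRAF between guides (0.013) and HRAS in sgZBTB11-2 against sgNS (0.0055). The cause was not tested. The limma scale is not centred: its all-gene median stood at 0.17 for DOX in sgNS at 5 hr, -0.16 on day 5, -0.13 and 0.19 for the net response at 5 hr and on day 5, 0.12 from 5 hr to day 1, -0.16 from day 3 to day 5, and -0.25 and -0.20 for the sgZBTB11-1 and sgZBTB11-2 courses against sgNS.

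With the lines pooled, the log2 ratio of HRAS to NRAS differed by 0.35 between 5 hr and day 5 in DOX libraries. ARAF to BRAF differed by 0.25 in DOX libraries and -0.48 from counts, and MAP2K2 to MAP2K1 by 0.090 from counts. In the DMSO libraries in TPM, where the 3 differences were -0.01, -0.06 and 0.49, leaving out 1 library gave -0.05 to 0.06, -0.10 to -0.02 and 0.45 to 0.53. Same-numbered libraries correlated from -0.14 to 0.31 (median 0.04) in their deviations, and others from -0.28 to 0.20 (median -0.02). Same-numbered pairs thus sat somewhat higher, and these values do not settle whether replicate numbers pair libraries. With the replicate block the DOX calls in sgZBTB11-1 were 7, the other totals were as without it, and 2 uncalled member results became called. On simulated data 42% of genes changed by 0.25 log2 units were called in the day 3 net contrast, and smaller changes were not simulated, so a gene that did not pass was not shown to be unchanged.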
